A study of Mus musculus with 4 samples.

Results

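Interferon-stimulated genes were described in leukocytes of the mouse hindpaw. The set was a list of 37 gene symbols, of which 36 had a row in the deposited matrices. Mx1 was not analysed here. For each of the 36 genes, and for their sum, the transcripts were added up over the cells of each library and of each cell class and were scaled to the total of the same cells, as UMIs per 1000000 UMIs, written CPM. A UMI (unique molecular identifier) marks 1 captured transcript, so each molecule was counted once. As the libraries were counted from the 3′ end, a level says nothing about transcript length, and levels are compared here between samples and not between genes.

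Leukocytes (CD45+ cells) were sorted from the digested hindpaws of male wild-type littermates (WT) and of diabetic Lepr db/db mice (DB), which lack a working leptin receptor in every cell and become obese and hyperglycaemic. The study took each genotype at 2 ages, 12 and 21 weeks, which the labels call young and aged. This gave 4 libraries. Where 4 values are listed together, the first is from 12-week-WT and the second from 12-week-DB, followed by 21-week-WT and last by 21-week-DB. Each library was 1 pool of 2 to 3 mice of the C57BLKS/J background, so no difference between genotypes or ages has a replicate check, no test was made between them, and the 95% intervals cover counting error only.

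Type I interferons, such as the product of Ifnb1, are secreted when a cell senses foreign or misplaced nucleic acid. They bind the receptor Ifnar1/Ifnar2, and the kinases Jak1 and Tyk2 then activate a complex that holds Stat2 and Irf9. This complex binds the interferon-stimulated response element (ISRE) in the promoters of many genes whose products block viral entry, translation and replication. Interferon gamma acts through its own receptor and shares part of these targets. Some factors, such as Irf3, can switch on a subset of the same genes directly in the cell that senses the nucleic acid, without secreted interferon. Macrophages and monocytes are known for a strong response.

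The libraries held 5271, 6552, 7270 and 8707 barcodes that showed 200 genes or more and no more than 10% mitochondrial UMIs, with 46435961, 55518358, 67723605 and 54431712 UMIs in total and a median of 7390.0, 7194, 8000.5 and 5355 per barcode. Cell classes were set by thresholds on marker genes, none of them a member of the list. Macrophages (C1qa, C1qb, C1qc) numbered 1585, 1636, 1504 and 1354, monocytes (Plac8, Chil3, Ly6c2, Vcan) 128, 115, 272 and 73, and type 2 conventional dendritic cells (cDC2, high in MHC class II genes) 687, 667, 1274 and 310. Between 16.5% and 26.1% of barcodes passed no threshold, and 1.22% to 2.52% passed several and entered no class. The 21-week pair shared 146 barcode sequences, 2.01% of the barcodes of 21-week-WT, the 12-week pair shared 38, and other pairs 5 to 18. With every shared sequence left out, the log2 ratio of DB over WT of the summed list was -0.88 at 12 and -0.82 at 21 weeks over all leukocytes, and -1.01 and -0.37 in macrophages, next to the values with them that follow. The files of the 12-week libraries name Cell Ranger 5.0.0 and those of the 21-week libraries 6.0.0, so age and software cannot be told apart.

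The promoters are shown first, because genes of this list are known as targets of the factors that bind the ISRE. The RefSeq promoter windows of GRCm38.p6, from 250 bases before to 50 bases after each start, were searched for the ISRE core GAAANNGAAA on both strands, and 28 members had a window. The core was found in 17 of these 28, which is 60.7%, against 1079 of 27025 genes, which is 3.99%. Among members with a window, 8 held at least 2 cores. Ifit1, Ifit3 and its near copy Ifit3b, all lower in DB macrophages at both ages, are shown with Isg15, which carries 3 overlapping cores. Ifi203 and Ifi207, which lie on the same chromosome, are shown as well. They share the same core but differed in DB macrophages at 21 weeks, and another window of Ifi203 held no core. Cores are in capitals, and the reverse strand reads TTTCNNTTTC.
Ifit1 (chr19:34640739-34640838, plus strand, bases 150 to 51 before the start): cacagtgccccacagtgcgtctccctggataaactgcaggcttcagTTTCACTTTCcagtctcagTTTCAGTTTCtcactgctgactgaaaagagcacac
Ifit3 (chr19:34583342-34583441, plus strand, bases 187 to 88 before the start): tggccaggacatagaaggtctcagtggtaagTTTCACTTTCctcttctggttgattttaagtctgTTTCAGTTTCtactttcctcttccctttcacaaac
Ifit3b (chr19:34607738-34607837, plus strand, bases 219 to 120 before the start): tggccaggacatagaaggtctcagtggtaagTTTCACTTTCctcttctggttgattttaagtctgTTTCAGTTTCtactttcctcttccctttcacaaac
Isg15 (chr4:156200850-156200949, minus strand, bases 131 to 32 before the start): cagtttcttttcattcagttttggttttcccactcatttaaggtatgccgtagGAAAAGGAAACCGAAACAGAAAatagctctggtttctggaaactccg
Ifi203 (chr1:173942493-173942592, minus strand, bases 100 to 1 before the start): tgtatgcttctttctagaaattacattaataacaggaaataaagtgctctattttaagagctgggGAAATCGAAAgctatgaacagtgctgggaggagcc
Ifi207 (chr1:173741816-173741915, minus strand, bases 106 to 7 before the start): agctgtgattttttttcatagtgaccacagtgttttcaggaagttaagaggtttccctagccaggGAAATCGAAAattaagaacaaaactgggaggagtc
The stretches of Ifit3 and Ifit3b were identical over all 100 bases, and those of Ifi203 and Ifi207 matched at 50 of 100 bases when set side by side without gaps. No core was found in the windows of Ifit2, Irf7, Irf9, Oasl1, Oasl2, Xaf1, Cmpk2, Ifi209, Herc6, Isg20 and Ifi44. In DB macrophages 15 of 17 members with a core were lower by at least 1.5-fold at 12 weeks and 10 of 17 at 21 weeks, and of 10 tested members whose window held no core 8 were lower at each age. Of all genes tested in macrophages, 7.11% were lower by that much at 12 weeks and 8.28% at 21 weeks. The median log2 ratio was -1.11 and -0.70 with a core and -1.44 and -0.99 without. A match is a description of letters and not of a bound site.

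Several members sit next to each other in the genome. On chromosome 19 lie Ifit2 (chr19:34550694-34576419), Ifit3 (chr19:34583531-34588731), Ifit3b (chr19:34607970-34613401) and Ifit1 (chr19:34640871-34650009). On chromosome 1 lie Ifi209 (chr1:173630917-173647928), Ifi207 (chr1:173723427-173741747), Ifi204 (chr1:173747293-173766943) and Ifi203 (chr1:173920407-173942672), and chromosome 5 carries the 5 Oas and Oasl genes. Members of these families, and the Gbp genes and Ifi27l2a with its close copy, are similar in sequence, so reads that match several of them may have been dropped or split, and single values within a family are uncertain. Most of the list's transcripts came from few genes. Ifitm3, Ifi27l2a and Ifi203 together made up 46.5% of its UMIs over the 4 libraries, so some sums are also given without these 3.

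Over all cells of a library, the 36 genes summed to 1472, 803, 1266 and 715 CPM. Both DB libraries were below both WT libraries. The log2 ratio of DB over WT was -0.87 (95% interval -0.89 to -0.86) at 12 weeks and -0.82 (95% interval -0.84 to -0.81) at 21 weeks. A sum over all leukocytes mixes how much each class expressed with how many cells of it there were. With every class held at its mean weight over both libraries of an age, the 12-week ratio was -0.76 and the 21-week ratio -0.51. Of the 35 members with at least 100 UMIs in all, 28 were lower in DB mice by at least 1.5-fold at 12 weeks, where 7.72% of all genes were, and 25 at 21 weeks, where 10.5% were. Higher by that much were 0 members at 12 weeks, where 6.08% of all genes were, and 0 at 21 weeks, where 21.4% were.

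By class, monocytes had the highest sum in every library. Ifitm3, which the study lists as a marker of its monocyte-derived macrophages, made up 2195, 1532, 2322 and 1213 CPM of it. Monocyte sums without Ifitm3, Ifi27l2a and Ifi203 are not given here. Over the 16 members followed cell by cell below, monocytes were above macrophages in 3 libraries. In 21-week-DB they were below, at 80.4 against 105 CPM. The sum of the whole list was 5805, 3155, 5986 and 2178 CPM in monocytes and 2164, 1083, 1608 and 1249.9 in macrophages. In neutrophils, of which there were 88, 88, 104 and 38, it was 2526, 1399, 3194 and 656. In cDC2 it was 1037, 691, 984 and 963. The classes of lymphocytes were lower, with 769, 629, 823 and 641 in αβ T cells, 442, 398, 364 and 399 in γδ T cells and 469, 449, 372 and 347 in type 2 innate lymphoid cells (ILC2). In every myeloid class named here both DB libraries were below the WT library of their age, by ratios from -0.03 in cDC2 to -2.28 in neutrophils, both at 21 weeks. The interval of the cDC2 ratio at 21 weeks, -0.08 to 0.02, included 0, and without Ifitm3, Ifi27l2a and Ifi203 that ratio turned to 0.22 (95% interval 0.15 to 0.29). In γδ T cells and ILC2 the ratios lay between -0.15 and 0.13. Without the 3 genes the γδ T cell ratios changed sign, to 0.09 at 12 weeks and -0.08 at 21 weeks, and both intervals included 0.

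**Figure D1:**
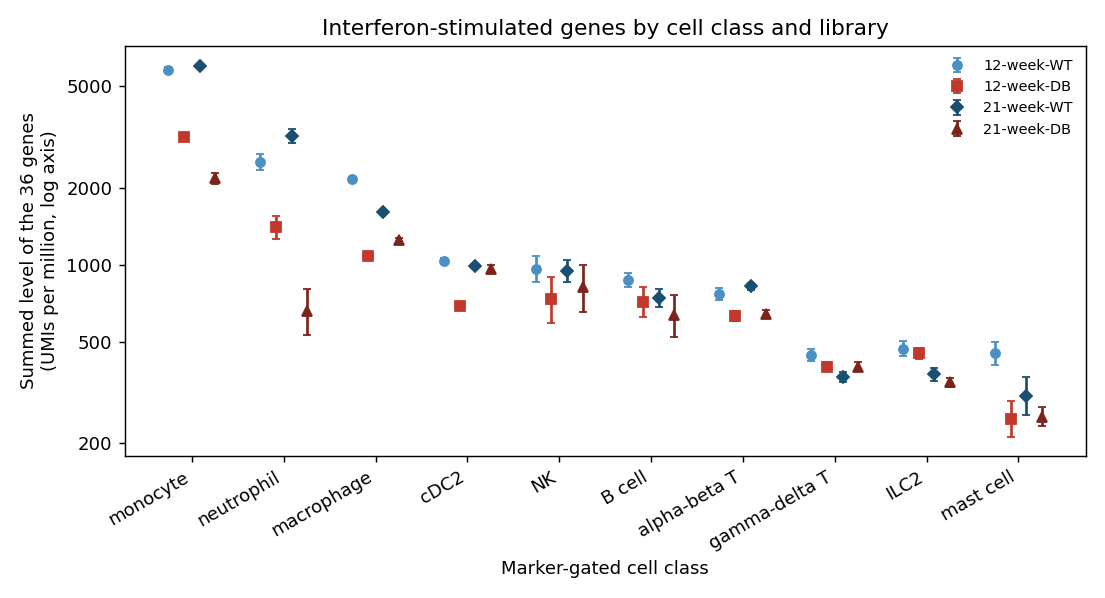
Summed level of the 36 interferon-stimulated genes in CPM, on a log axis, for 10 marker-gated cell classes in the 4 libraries, with exact 95% Poisson intervals for counting error as bars. The 2 WT libraries lie above both DB libraries in monocytes, neutrophils and macrophages, and the 4 libraries lie close together in γδ T cells and ILC2.

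At 12 weeks, DB macrophages held less of the list than WT macrophages, 1083 against 2164 CPM, a log2 ratio of -0.998 (95% interval -1.02 to -0.97). Of the 35 members with at least 100 UMIs in macrophages, 31 were lower in 12-week-DB by at least 1.5-fold, where 7.11% of 11444 genes were, and none was higher by that much, where 4.44% were. Their median log2 ratio was -1.31, and that of all genes was 0.01. The remaining member, Ifi44, had 1, 0, 6 and 0 UMIs and was not counted.

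Among the antiviral effectors, 13 of 16 were lower by at least 1.5-fold at 12 weeks. The Ifit genes, whose products bind foreign RNA and block its translation, were among those furthest below WT. Ifit2 stood at 10.9, 1.18, 12.4 and 1.39 CPM in macrophages, so that both WT libraries were high and both DB libraries low, and 12-week-DB was 9.21-fold lower than 12-week-WT (log2 -3.20, 95% interval -3.93 to -2.54). Ifit3 was at 10.7, 1.8, 11.2 and 2.47, which is 5.93-fold lower at 12 weeks. Its near copy Ifit3b was at 3.05, 0.395, 2.49 and 0.618, on 47, 7, 42 and 8 UMIs. The same split of WT over DB held for Ifit1 at 24.6, 5.53, 24.1 and 10.7, for Rsad2 (viperin, which makes a chain-ending nucleotide) at 29.3, 5.58, 28.8 and 12.1 and for Cmpk2, a nucleotide kinase encoded beside Rsad2, at 11.8, 2.59, 8.94 and 1.7. Oasl2, one of the oligoadenylate synthetase family that answers double-stranded RNA, was at 37.6, 9.59, 15.1 and 6.8, and Oas1a, Oas2, Oas3 and Oasl1 were lower at 12 weeks by 2.15-fold, 3.26-fold, 3.59-fold and 2.29-fold.

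Isg15, a ubiquitin-like protein that is attached to other proteins, was below WT at 12 weeks only. It was at 18.4, 8.52, 19.4 and 19.9 CPM in macrophages, 2.16-fold lower in DB mice at 12 weeks, with a log2 ratio of 0.04 (95% interval -0.20 to 0.28) at 21 weeks. Bst2 (tetherin, which holds budding virus at the cell surface) was at 65.6, 42.1, 52.1 and 55.7 and was likewise below WT at 12 weeks only. The effector with most transcripts, Ifitm3, which blocks viral entry, was at 302, 316, 221 and 226, with log2 ratios of 0.06 (95% interval 0.01 to 0.12) and 0.03 (95% interval -0.04 to 0.10). It was the 1 member of the 35 that was not below WT at 12 weeks. The exonuclease Isg20 (log2 -0.31) and Herc6, a ligase that attaches Isg15 (log2 -0.52), did not reach 1.5-fold.

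Of the 7 nucleic acid sensors, 6 were lower by at least 1.5-fold at 12 weeks. Zbp1, which senses left-handed nucleic acid, was at 15.2, 4.34, 14.3 and 3.71 CPM in macrophages. Ifih1 (MDA5, a sensor of long double-stranded RNA) was at 34.2, 21.3, 32.9 and 20.3, and its relative Dhx58 was 1.62-fold lower at 12 weeks. Of the PYHIN proteins, which bind DNA, Ifi203 was at 90.1, 40.3, 66.2 and 61.9, Ifi204 at 123, 76.1, 102 and 128, Ifi209 at 17.5, 11.1, 12.7 and 8.43 and Ifi207 at 189.6, 129, 147 and 294. Only Ifi207 among the 7 sensors stayed within 1.5-fold of WT at 12 weeks (log2 -0.55, 95% interval -0.63 to -0.47).

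All 3 transcription factors were lower at both ages. Irf7, the factor that amplifies interferon production, was at 25.3, 7.9, 29.6 and 9.2 CPM in macrophages, 3.21-fold lower in DB mice at 12 weeks and 3.22-fold at 21 weeks. Irf9, the DNA-binding part of the ISRE complex, was at 57, 19.3, 33.3 and 18.7, and its partner Stat2 at 30.8, 19.4, 27 and 17.5. The guanylate-binding proteins, which attack membranes around pathogens, were lower at 12 weeks in all 3 cases. Gbp2 was at 17.3, 5.87, 11.5 and 4.48, Gbp3 at 24.8, 8.69, 16.4 and 6.34 and Gbp7 at 48.3, 22.8, 28.2 and 20.3.

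Of the regulators and other members, all 6 with enough UMIs were lower by at least 1.5-fold at 12 weeks. Ifi27l2a, which encodes a small membrane protein and was the member with most transcripts in WT macrophages, was at 642, 167, 471 and 174 CPM, 3.83-fold lower at 12 weeks and 2.7-fold at 21 weeks. Rtp4 was at 36.5, 4.85, 16.4 and 5.64, so that 12-week-WT stood above the other 3 libraries. Usp18, which removes Isg15 from proteins and damps the type I receptor, was at 13.2, 2.26, 6.51 and 2.47. Xaf1, a pro-apoptotic factor, was at 44.4, 17.9, 33.3 and 14.9. The ADP-ribosyltransferase Parp14 was at 69.6, 35.6, 43.1 and 38.8 and the ubiquitin ligase Trim30a at 74.5, 48.8, 48.6 and 36.1, and for both 12-week-WT was the highest.

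**Figure D2:**
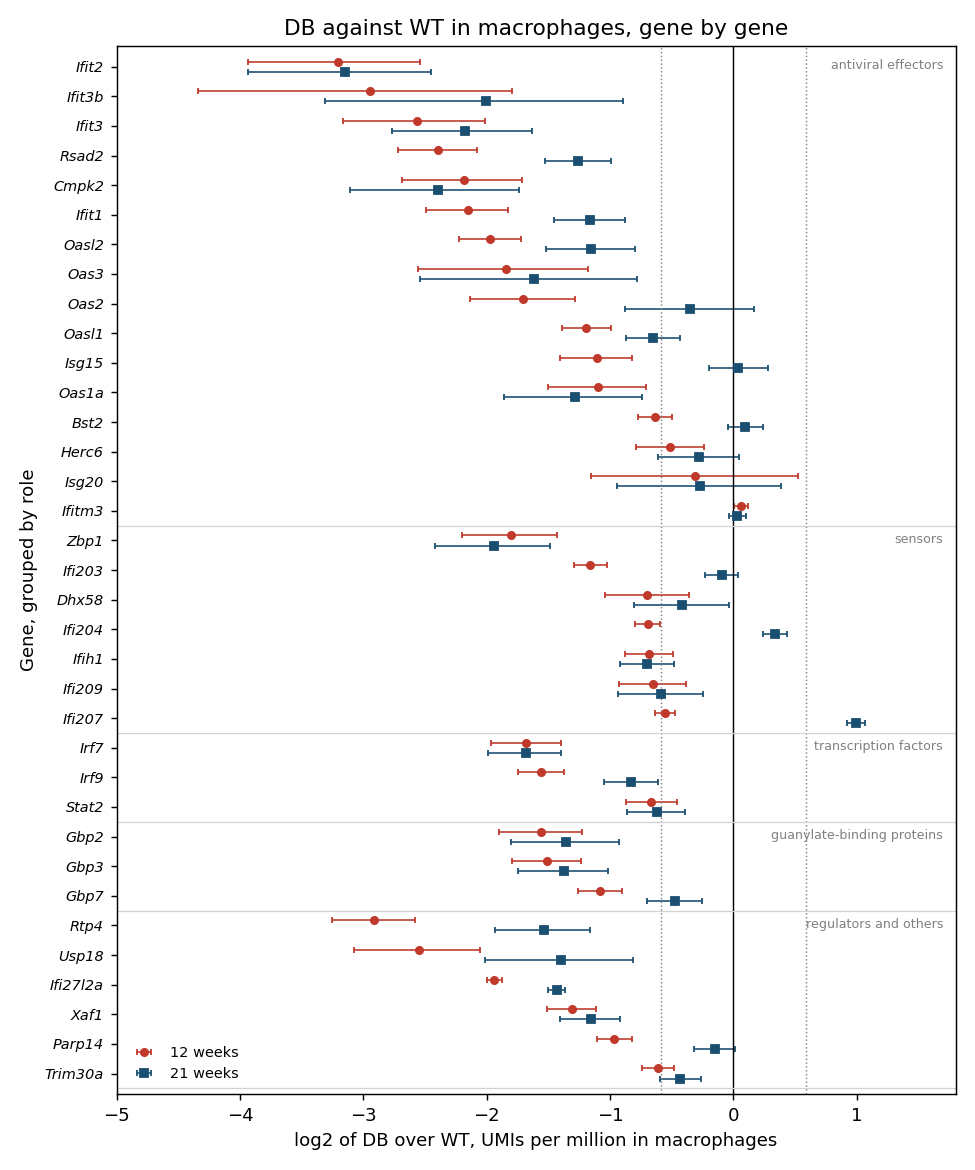
Log2 ratio of DB over WT in macrophages for the 35 interferon-stimulated genes with at least 100 UMIs, at 12 weeks (circles) and 21 weeks (squares), with exact 95% intervals for counting error, and dotted lines at 1.5-fold. At 12 weeks 34 of the 35 points lie below 0, and at 21 weeks 30 do, with Ifi207 farthest to the right.

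At 21 weeks the summed difference in macrophages was smaller, with a log2 ratio of -0.36 (95% interval -0.39 to -0.33). Without Ifitm3, Ifi27l2a and Ifi203 it was -0.11 (95% interval -0.15 to -0.07). The sum behind this second ratio still holds Ifi207, at 147 CPM in 21-week-WT and 294 in 21-week-DB. Members differed in direction. At least 1.5-fold lower were 22 of 35 members, where 8.28% of all genes were, and 1 member was higher by that much, where 13.6% of all genes were. The median log2 ratio of the members was -0.83 and that of all genes was 0.06. Ifit2 (8.89-fold lower), Cmpk2 (5.25-fold), Ifit3 (4.52-fold), Ifit3b (4.02-fold) and Zbp1 (3.84-fold) were again far below WT. On the other side, Ifi207 was 1.995-fold higher in 21-week-DB than in 21-week-WT (log2 0.996, 95% interval 0.92 to 1.07), the highest of the 4 libraries. Its neighbour Ifi204 was higher by a log2 ratio of 0.33 (95% interval 0.24 to 0.43), and Bst2 (0.10), Isg15 (0.04) and Ifitm3 (0.03) had intervals that included 0.

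Between ages, the 36-gene sum in macrophages had a log2 ratio of 21 over 12 weeks of -0.43 in WT mice and 0.21 in DB mice, where the median over all genes was -0.17 and -0.12. In WT macrophages 10 of 35 members were lower at 21 weeks by at least 1.5-fold, where 11.9% of all genes were, among them Rtp4, Oasl2, Oas2 and Irf9, and 1 was higher, Isg20, where 3.5% were. In DB macrophages 8 were higher, where 9.33% of all genes were, namely Isg15, Ifit1, Ifit3b, Rsad2, Ifi203, Ifi204, Ifi207 and Isg20, and 2 were lower, Oas1a and Cmpk2, where 13.8% were. These ratios carry the change of software along with age.

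For a subset of members, part of the UMIs in macrophages came from few cells. To count them, 16 members were followed cell by cell, namely Ifit1, Ifit2, Ifit3, Ifit3b, Rsad2, Cmpk2, Usp18, Rtp4, Oasl1, Oasl2, Irf7, Isg15, Zbp1, Oas1a, Oas2 and Oas3, a subset chosen after the values were seen. Their sum in macrophages was 304, 81.9, 236 and 105 CPM (log2 -1.89 at 12 and -1.17 at 21 weeks). At least 6 of the 16 were detected in 93, 12, 66 and 10 macrophages, which is 5.87, 0.733, 4.39 and 0.739% of them. In exact binomial intervals these shares ran from 4.76% to 7.14% in 12-week-WT and from 0.38% to 1.28% in 12-week-DB. Those cells held 47.9, 21.6, 54 and 11.1% of the UMIs of the 16 genes. The cut counts these same genes, so a library with less of them can pass fewer cells. It does not measure how concentrated the UMIs were. At the other end, 37.4, 61.6, 46.8 and 67% of macrophages had none of the 16. With every macrophage thinned to 5000 UMIs, which left out 274, 209, 173 and 221 cells, the shares were 2.52, 0.21, 2.48 and 0.353%. A UMI of any Ifit gene was seen in 179, 48, 144 and 63 macrophages. The 5% of macrophages with most Ifit UMIs, which is 79, 81, 75 and 67 cells, held 83.8, 100, 90.6 and 100% of them. In both DB libraries fewer cells than that had an Ifit UMI. Their 100% was thus fixed in advance, and this measure cannot rank the libraries.

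Without the cells in which at least 6 were detected, the 16 genes summed to 171, 64.7, 114 and 93.8 CPM. The log2 ratio of DB over WT was then -1.41 at 12 weeks and -0.28 at 21 weeks. All 36 genes summed to 1821, 1036, 1313 and 1210 CPM without these cells, to be read beside the sums over all macrophages given earlier. Their log2 ratio was -0.81 and -0.12. Without Ifitm3, Ifi27l2a and Ifi203 it was -0.77 at 12 weeks and turned to 0.25 (95% interval 0.21 to 0.29) at 21 weeks. This smaller sum was 641 CPM in 21-week-WT and 764 in 21-week-DB. Ifi207, which is part of it, was at 147 and 294 CPM over all macrophages. A sum without Ifi207 as well is not given here. The cells left out were picked on these same genes, so the ratios are a description.

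**Figure D3:**
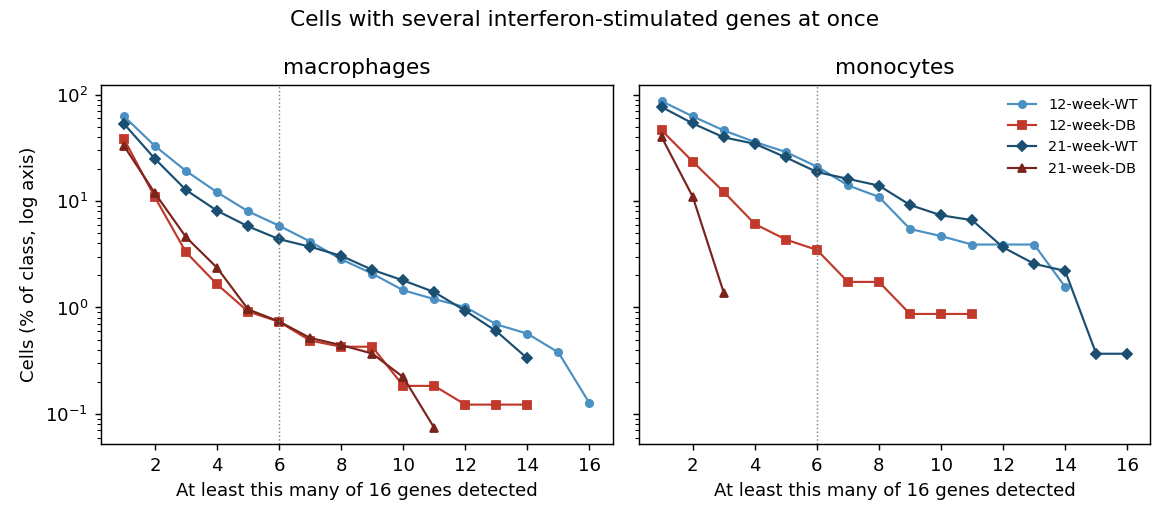
Share of macrophages (left) and monocytes (right), in percent on a log axis, with at least a given number of 16 interferon-stimulated genes detected, by library, with a dotted line at 6 genes. In macrophages both WT curves lie above both DB curves from 1 gene on, and the 21-week-DB monocytes end at 3 genes.

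The DB libraries were below WT in macrophages with and without Lyve1, the surface receptor by which the study divides them. Lyve1 was detected in 69.0%, 64.1%, 63.2% and 68.6% of macrophages. In Lyve1+ macrophages the log2 ratios of the 36-gene sum were -0.99 and -0.35, and in Lyve1- macrophages -0.96 and -0.41. Markers of other cells differed among the macrophage libraries too. The monocyte genes Plac8, Chil3, Ly6c2 and Vcan summed to 72.4, 57.4, 147 and 60.7 CPM, a longer list of 7 monocyte markers, all detected in each library, to 298, 459, 393 and 184, and Cd74, H2-Aa, H2-Ab1 and H2-Eb1 to 9881, 7666, 14289 and 2471. In macrophages with no UMI of Plac8, Chil3, Ly6c2 and Vcan the ratios were -0.97 and -0.27. Without Ifitm3, Ifi27l2a and Ifi203 they were -0.95 and -0.02, and the 21-week interval, -0.06 to 0.03, included 0. The part of the MHC class II difference in these results was not tested.

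Between Lyve1+ and Lyve1- macrophages of the same library, tested on sums over the 4 libraries with edgeR's quasi-likelihood test, library as a block and Benjamini-Hochberg adjustment over 11742 genes, 7 of 35 members were lower in Lyve1+ cells, where 13% of all genes were, and 2 were higher, where 12.9% were. Ifi27l2a was higher, at 775, 218, 544 and 217 CPM in Lyve1+ against 287, 58.6, 309 and 51.5 in Lyve1- macrophages, with an edgeR log2 ratio of 1.42 (SE 0.18, adjusted p = 0.000548). The other was Cmpk2, at 0.72 (SE 0.208, adjusted p = 0.0321) by the same edgeR test. The count of higher members was 1 with DESeq2, without 12-week-WT and with a mitochondrial limit of 5%. Isg15 was lower, at 15.3, 6.59, 15.4 and 14.2 against 26.4, 12.7, 28.3 and 36.4, with an edgeR log2 ratio of -1.08 (SE 0.117, adjusted p = 0.00024). Oas3, Ifi209, Ifih1, Zbp1, Oasl1 and Rsad2 were the other lower members, with edgeR log2 ratios from -1.29 (Oas3) to -0.62 (Rsad2). Without the library block, which pairs the cells of 1 library, none of the 35 members passed in either direction. Cells were grouped by their own Lyve1 UMI, and with each macrophage thinned to 2000 UMIs before Lyve1 was read the counts were again 7 lower and 2 higher.

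Monocytes showed the wider gap at 21 weeks. Their sum had log2 ratios of -0.88 (95% interval -0.94 to -0.82) and -1.46 (95% interval -1.54 to -1.38). At 12 weeks 19 of 28 members with at least 100 UMIs in monocytes were lower by at least 1.5-fold, where 8.62% of 5699 genes were, and 1 was higher, where 10% were. At 21 weeks 26 of 28 were lower, where 15.8% of all genes were, and none was higher, where 10.7% were. The median log2 ratio of the members was -1.04 and then -2.05, against 0.04 and -0.03 over all genes.

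Ifi27l2a in monocytes was at 1365, 352, 1311 and 35.1 CPM, on 1824, 304, 3568 and 24 UMIs, which is 3.88-fold lower in DB mice at 12 weeks and 37.4-fold lower at 21 weeks. Several members were not detected at all in the 73 monocytes of 21-week-DB. Ifit2 was at 45.7, 12.7, 50.7 and 0 and Ifit3 at 28.4, 3.48, 35.6 and 0, and, with a count of 0 taken as allowing up to 3 UMIs in that library, they were at least 11.6-fold and 8.12-fold lower than in 21-week-WT. Oasl2 (71, 18, 143 and 0 UMIs) and Oas3 (58, 7, 107 and 0 UMIs) were at least 12-fold and 8.96-fold lower. Ifit1, Oas1a, Usp18, Ifit3b and Ifi44 also had no UMI there. Irf7 was at 111, 35.9, 129 and 13.2, Rtp4 at 58.4, 11.6, 44.8 and 1.46 and Oas2 at 22.5, 4.63, 26.1 and 2.93, each with both WT libraries on top. At least 6 of the 16 genes were detected in 27, 4, 51 and 0 monocytes, and 0 of 73 allows a share of up to 4.93% in an exact binomial interval.

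Rsad2 was at 74.8, 37.1, 102 and 5.85 CPM and Cmpk2 at 42.7, 11.6, 28.3 and 2.93 in monocytes, on 100, 32, 278 and 4 and 57, 10, 77 and 2 UMIs. Other members did not follow. Ifi207 was at 171, 173, 195 and 288 CPM, highest in 21-week-DB as in macrophages, and Parp14 at 68.9, 71.8, 88.6 and 27.8, low in 21-week-DB alone. The 1 member above WT by 1.5-fold at 12 weeks was Gbp2, at 15.7, 41.7, 28.7 and 8.78 on 21, 36, 78 and 6 UMIs. Monocytes of 21-week-DB also differed in markers. Their MHC class II genes summed to 6778, 4880.0, 12119 and 1236 CPM and 7 neutrophil markers to 284, 243, 124 and 979, of which 6 were detected there. Whether the low values come with a different mix of monocyte states was not tested. In neutrophils, on 754, 387, 935 and 96 UMIs of the 36 genes, the log2 ratios were -0.85 (95% interval -1.03 to -0.67) and -2.28 (95% interval -2.60 to -1.98). Without the 3 genes with most UMIs they were -0.35 (95% interval -0.57 to -0.13) and -2.41.

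In cDC2 most members were below WT in DB mice at 12 weeks, and at 21 weeks some were below and some above. At 12 weeks 19 of 33 members were lower in DB mice by at least 1.5-fold, where 4.12% of all genes were, and none was higher, where 4.55% were. At 21 weeks 14 were lower, where 9.96% of all genes were, and 7 were higher, where 13.2% were. Isg15 was at 16.9, 12.4, 17.5 and 56.7 CPM in cDC2, Ifit1 at 13.5, 7.58, 11.3 and 50.5, Oasl1 at 27.1, 9.77, 19.3 and 33.7 and Ifi207 at 46, 23.6, 39.4 and 95.2. For each of these 4 the 21-week-DB library was the highest and 12-week-DB the lowest. In the same cells Ifi27l2a was at 187, 52.9, 182 and 18.6 and Ifit3 at 1.94, 1.38, 4.1 and 0.244, with 21-week-DB the lowest. Ifit UMIs came from few cDC2 in every library. A UMI of any Ifit gene was seen in 46, 23, 85 and 21 cells, on 185, 95, 371 and 220 UMIs. The 5% of cells with most of them held 93.5, 100, 94.1 and 95.9%, and 1 cell held up to 57, 21, 41 and 39. In 12-week-DB that 5% was 33 cells, more than had an Ifit UMI, so its 100% was fixed in advance. The high Ifit1 of 21-week-DB lay in cDC2 without Ccr7, the receptor of migrating dendritic cells. There Ifit1 was at 7.97, 6.02, 8.55 and 62.2, while in Ccr7+ cDC2 it was at 60.6, 21.4, 22.5 and 11.7.

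In T cells and ILC2 together (961, 1960, 1814 and 3202 cells) the genotypes were closer. The 36-gene sum was 539, 469, 528 and 443 CPM, with log2 ratios of -0.20 (95% interval -0.26 to -0.14) and -0.25 (95% interval -0.30 to -0.21). At 12 weeks 2 of 23 members were lower by at least 1.5-fold, where 3.92% of all genes were, and 3 were higher, where 6.77% were. At 21 weeks 10 were lower, where 12.7% of all genes were, and 2 were higher, where 12.3% were. Ifi27l2a was again low in DB mice at both ages, at 55.7, 21.7, 73 and 34.6. At 12 weeks the next lowest ratios were those of Rsad2 (5.32, 3.22, 2.64 and 3.21), Gbp7 (20.7, 14, 21 and 17.6), Irf9 (29, 20, 24.5 and 14.9) and Ifi209 (22.7, 16.7, 15.7 and 15.6). The highest ratios at 12 weeks were those of Oasl2 at 5.93, 12.8, 6.78 and 8.37, Ifit2 at 1.83, 2.9, 3.31 and 1.74, Ifitm3 at 14.9, 23.6, 15 and 8.63, Bst2 at 30.3, 37, 22.5 and 32.3 and Gbp2 at 4.56, 5.4, 4.75 and 2.58. Ifitm3 was thus highest in 12-week-DB and lowest in 21-week-DB. At 21 weeks the lowest ratio was that of Zbp1 (11.9, 10.5, 17.4 and 6.74), and Isg15 (18.6, 18, 8.36 and 13.5), Isg20 (6.08, 4.83, 6.25 and 9.79) and Ifi203 (122, 113, 108 and 134) were above WT.

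Free RNA from broken cells bears on low values in lymphocytes. The macrophage genes C1qa, C1qb and C1qc reached 1.23, 1.26, 0.777 and 0.595% of their macrophage level in T cells and ILC2. The 36-gene sum reached 24.9, 43.3, 32.8 and 35.5% and Ifi203 135, 281, 163 and 216%, far above the C1q share. Ifi207 reached 1.6, 2.31, 2.2 and 0.915% and Ifi204 2.1, 1.69, 2.003 and 1.11% in these lymphocytes. Both shares were above the C1q share in each library, by less than 3 times. The part of free RNA in these low levels was not tested.

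Classes could be compared within each library, which gives 4 pairs. In monocytes over macrophages, 28 of 35 members were higher in edgeR's quasi-likelihood test (adjusted p under 0.05), where 18.8% of 11792 genes were, and none was lower, where 20.4% were. The count of lower members was also 0 at an unadjusted p under 0.05 and by DESeq2. Without 21-week-WT 19 members were higher and 1 was lower. The order did not hold in every library for each of the 28. Among them, Rsad2, Rtp4, Parp14, Oas2 and Ifi207 were lower in monocytes than in macrophages of 21-week-DB. Ifit2, Ifit3, Ifit3b, Oasl2 and Usp18 had no UMI in the monocytes of that library. In 12-week-WT, Ifi207 (171 against 189.6 CPM) and Parp14 (68.9 against 69.6) were also lower in monocytes. The PYHIN gene Ifi209 stood apart most, at 144, 83.4, 128 and 64.4 CPM in monocytes against 17.5, 11.1, 12.7 and 8.43 in macrophages, with an edgeR log2 ratio of 3.31 (SE 0.144, adjusted p = 1.89e-08). Oas3 followed at 43.4, 8.11, 39.3 and 0 against 5.06, 1.41, 3.55 and 1.16 (edgeR 3.13, SE 0.411, adjusted p = 8.73e-05). In 21-week-DB monocytes the 0 UMIs allow a level of up to 4.39 CPM, above that of macrophages, so this library gives no direction for Oas3. Isg20 reached 2.997 (SE 0.352, adjusted p = 3.71e-05) and Zbp1 2.60 (SE 0.19, adjusted p = 1e-06) by edgeR. Ifitm3 was at 2195, 1532, 2322 and 1213 against 302, 316, 221 and 226 (edgeR 2.98, SE 0.177, adjusted p = 2.07e-07). The study lists Ifitm3 among the markers of its monocyte-derived macrophages, so this value is no independent evidence. Ifi27l2a did not pass, with monocytes above macrophages in 3 libraries and below them in 21-week-DB.

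Macrophages exceeded T cells and ILC2 in 21 of 34 members, where 35.3% of 13321 genes were higher, and were below them in 5, where 35.6% were lower. The count of 5 was 3 without 12-week-DB and 3 without the library block. Ifi207 (189.6, 129, 147 and 294 against 3.04, 2.98, 3.24 and 2.69 CPM, edgeR 6.0, SE 0.215, adjusted p = 5.15e-07) and Ifi204 (edgeR 5.98, SE 0.153, adjusted p = 2.9e-07) had the highest ratios, which rest on low lymphocyte levels that may hold free RNA, followed by Ifitm3, Oas2 and Oas1a with edgeR log2 ratios of 4.21, 4.02 and 3.92. The lymphoid side was led by Isg20 (1.75, 1.41, 3.08 and 2.55 against 6.08, 4.83, 6.25 and 9.79, edgeR -1.56, SE 0.224, adjusted p = 0.000492). Gbp3 (edgeR -1.08, SE 0.332, adjusted p = 0.0202) and Ifi203 (90.1, 40.3, 66.2 and 61.9 against 122, 113, 108 and 134, edgeR -0.88, SE 0.172, adjusted p = 0.00248) followed, with Herc6 (-0.62) and Ifi209 (-0.48). Of the 4 PYHIN genes, Ifi204 and Ifi207 were thus higher in macrophages, and Ifi203 and Ifi209 in T cells and ILC2.

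**Figure D4:**
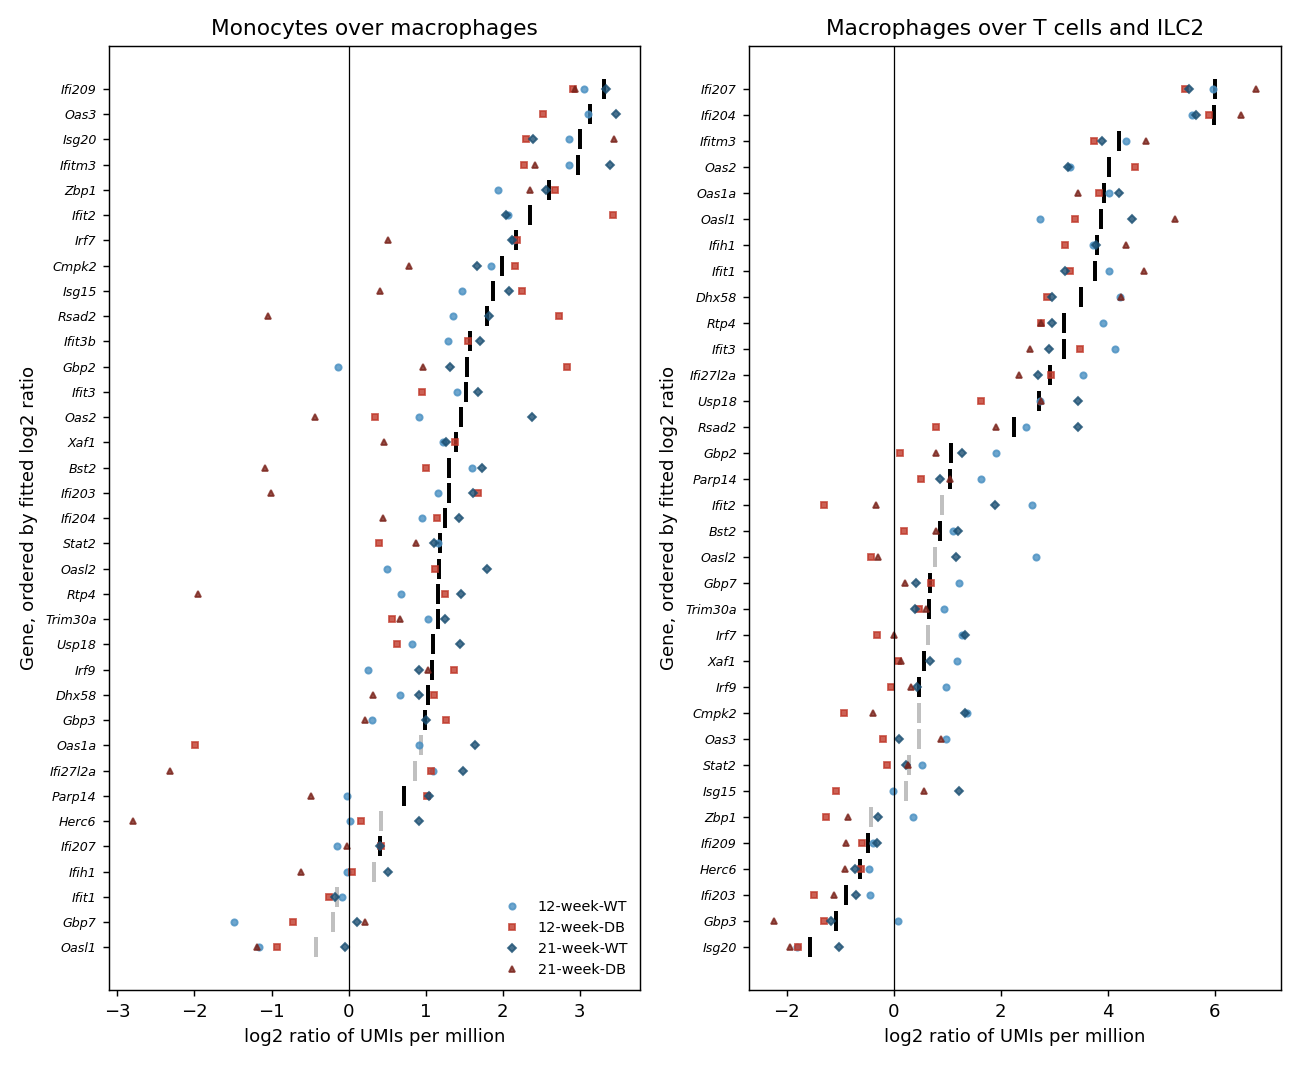
Log2 ratio of CPM for each interferon-stimulated gene, monocytes over macrophages (left) and macrophages over T cells and ILC2 (right), as 1 point per library and a bar for the edgeR fit, black where the adjusted p was under 0.05. A library in which a class had no UMI of the gene has no point. On the left 28 of 35 bars are black and to the right of 0, and on the right Ifi207 and Ifi204 lie near 6.

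The rest of the interferon pathway was followed in macrophages from lists of genes that are no members. None of 5 receptor genes with at least 100 UMIs differed by 1.5-fold at either age, with Ifnar1 at 91.2, 81.5, 91.4 and 65.6 CPM and Ifnar2 at 142, 115, 159 and 147.

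Of 10 further sensors and adaptors, Ddx58 (RIG-I) at 24.9, 13.8, 20.3 and 13.9 and the RNA-activated kinase Eif2ak2 at 29.9, 17.4, 20.5 and 14.3 were lower at 12 weeks, and none was lower by 1.5-fold at 21 weeks. The endosomal RNA receptor Tlr7 was higher at 21 weeks, at 112, 106, 88.6 and 193. Of 6 negative regulators 1 was lower at 12 weeks, Socs1 at 14.1, 8.35, 13.4 and 11.4, and none at 21 weeks. Of the 2 partners that attach Isg15, Ube2l6 was lower at 21 weeks, at 29.7, 27.9, 25.1 and 13.7. Genes known for a strong response to interferon gamma were lower in 8 of 12 cases at 12 weeks and 5 of 12 at 21 weeks, with 1 higher, Gbp5 at 3.12, 1.24, 3.08 and 5.1. Among them the peptide transporter Tap1 was at 35.3, 17.7, 39.6 and 11.9 and Ciita, the switch of MHC class II genes, at 25.3, 24.6, 29.8 and 6.49. These counts stand beside the same 7.11% lower and 4.44% higher of all genes at 12 weeks, and 8.28% and 13.6% at 21 weeks.

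Of 21 interferon genes, 14 had no UMI in any kept cell of the 4 libraries, and Ifnb1 and Ifng alone had at least 100 UMIs. Ifng had 879, 771, 1440 and 823 UMIs, most of them in αβ T cells, NK cells and barcodes that passed no threshold. Ifnb1 had 94, 151, 260 and 216 UMIs in 29, 37, 69 and 34 cells, with up to 13, 19, 36 and 54 in 1 cell. Macrophages held 56.4, 58.9, 36.9 and 43.1% of the Ifnb1 UMIs and cDC2 30.9, 35.8, 46.9 and 56%. In macrophages Ifnb1 was at 3.44, 5.02, 5.68 and 7.19 CPM, so that by CPM neither DB library was below the WT library of its age. At 21 weeks this rested on 96 UMIs in 32 WT macrophages and 93 UMIs in 16 DB macrophages, so by cells DB had fewer. Ifng in macrophages had 7, 76, 23 and 33 UMIs, most in 12-week-DB.

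Cells with an Ifnb1 UMI had higher levels of some members. They numbered 13, 16, 32 and 16 among macrophages and 14, 13, 23 and 16 among cDC2, a division added after the values were seen. Ifit1 in such macrophages was at 113, 101, 597 and 30.9 CPM, and in all other macrophages at 23.8, 4.45, 13.9 and 10.5. In cDC2 with an Ifnb1 UMI it was at 57.9, 117, 214 and 684, and in all other cDC2 at 12.4, 4.72, 7.13 and 17. Every one of these 8 comparisons had the Ifnb1+ cells on top. In 21-week-DB macrophages this rested on 5 UMIs, with an interval of 10.0 to 72.1 CPM that included the 10.5 of the others. Between 25% and 56.2% of Ifnb1+ cells had an Ifit1 UMI, against 1.53% to 7.89% of the others.

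The same order held in all 8 comparisons for Isg15, Ifih1, Oasl1 and Rsad2. In 21-week-DB macrophages Oasl1 rested on 5 UMIs, with an interval of 10.0 to 72.1 CPM that included the 19.9 of the others. Rsad2 in 12-week-DB cDC2 rested on 4 UMIs, with an interval of 4.89 to 45.9 CPM that included the 6.37 of the others. Ifi27l2a did not keep this order, at 818, 70.7, 197 and 124 in Ifnb1+ macrophages against 640, 168, 476 and 175. In cDC2 it was at 138, 62.8, 183 and 24.3 against 188, 52.6, 182 and 18.3. Ifi207 was below the others in macrophages of 21-week-DB and cDC2 of 12-week-DB, and above them otherwise. Isg15 was at 80.2, 112, 200.1 and 437 CPM in Ifnb1+ cDC2 and at 15.3, 9.79, 13.8 and 36.5 in the others, and Rsad2 at 733, 106, 437 and 297 in Ifnb1+ macrophages and 22.8, 4.45, 21.6 and 8.45 in the others. Ifit3 had 0, 0, 2 and 0 UMIs in Ifnb1+ cDC2 and 0, 2, 5 and 1 in Ifnb1+ macrophages, and Irf7 had 1, 0, 1 and 0 and then 4, 3, 7 and 0. Neither was higher in the Ifnb1+ cells of every library. On these few UMIs each interval in Ifnb1+ cells included the level of the others. In 21-week-DB the 16 Ifnb1+ cDC2 held 68.1% of the Ifit1 and 77.3% of the Rsad2 UMIs of their class. Ifnb1+ macrophages held 4.22, 20.4, 43.2 and 3.6% of the Ifit1 UMIs of theirs, so the Ifit1 level of 21-week-WT macrophages rested in part on 32 cells. Median depth was 7246, 10244, 9539 and 9198 UMIs in Ifnb1+ macrophages and 8712, 10092, 10386 and 8817 in the others. Doublets and the order of events in these cells were not tested.

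**Figure D5:**
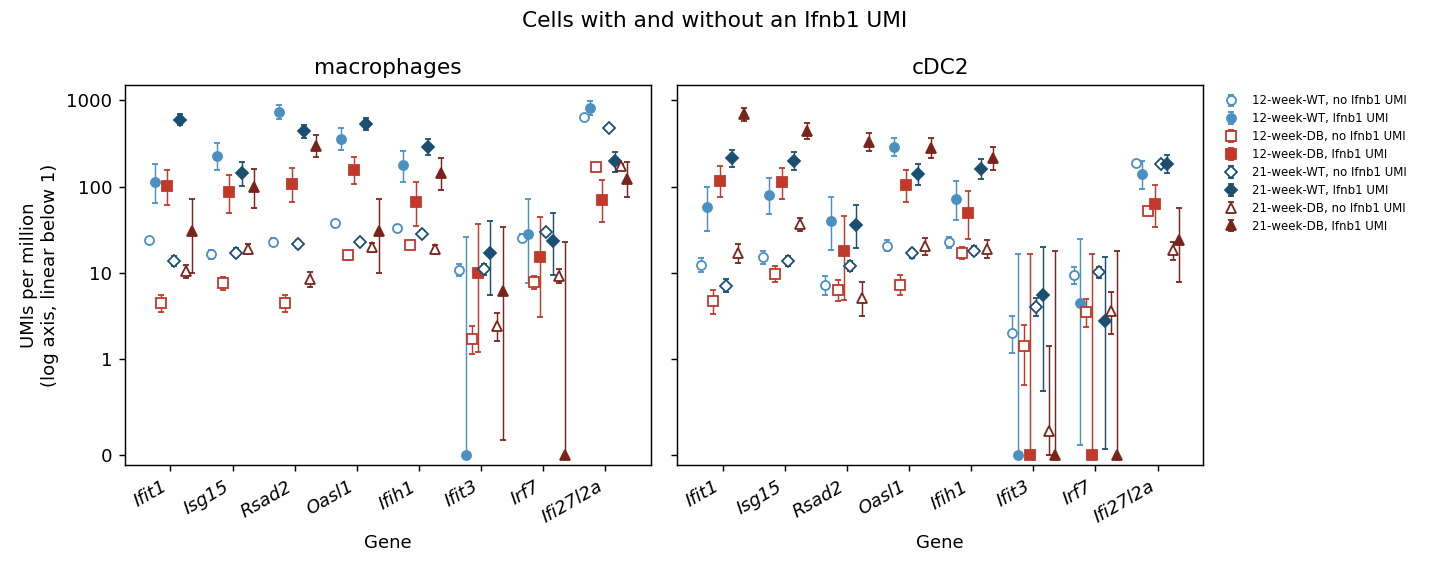
CPM of 8 interferon-stimulated genes, on an axis that is logarithmic above 1 and linear below, in macrophages (left) and cDC2 (right) with an Ifnb1 UMI (filled) and without (open), by library, with exact 95% Poisson intervals for counting error. Filled points lie above open points of the same library for Ifit1, Isg15, Rsad2, Oasl1 and Ifih1, and Ifit3 and Irf7 have wide intervals in the filled points. For Ifi27l2a the order differs among libraries.

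Across the 28 sums of 7 classes in 4 libraries, genes outside the list whose level followed the 36-gene sum closely included C130026I21Rik (Pearson r = 0.93 on log2 of CPM plus 10), Ifi211 (0.93) and Plod3 (0.92) among 13665 genes. The 28 points share libraries and cell classes, and r is a description. Ifi211 lies in the same PYHIN family as Ifi204. It was at 146, 103, 119.8 and 43.9 CPM in monocytes and 48.7, 22.5, 35.1 and 51.2 in macrophages. Each member is itself part of the sum, so its r is not comparable with that of an outside gene. Among the members r ran from 0.94 for Dhx58 to -0.06 for Herc6, with Gbp3 (0.36), Ifi203 (0.39) and Isg15 (0.45) also low.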

How the data were processed

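Single-cell libraries (10x 3′ v3) of CD45+ hindpaw cells were made by the authors, aligned to mm10 with Cell Ranger (5.0.0 in the 12-week file headers and the submitters' processing notes, 6.0.0 in the 21-week headers) and deposited as raw UMI counts per gene and barcode, without normalization. Kept barcodes had 200 genes or more and a mitochondrial share of 10% or less, and no doublet caller was run. Classes were set by summed marker UMIs per 10000 UMIs, for example at least 16 of C1qa, C1qb and C1qc for macrophages and 8 of Plac8, Chil3, Ly6c2 and Vcan for monocytes, thresholds set after seeing the data. Barcodes that met several were left out.

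UMIs were summed per library and class and divided by all UMIs of those barcodes. Intervals are exact at 95% (Poisson for levels, conditional binomial for ratios, Clopper-Pearson for shares) and cover counting error only, as each group was 1 library. A member counted as changed past 1.5-fold if it had at least 100 UMIs in the class. Classes were compared within libraries by edgeR (version 4.0.16, under R 4.3.3, with TMM, filterByExpr, library as a block, quasi-likelihood, Benjamini-Hochberg adjusted p under 0.05) and, as an alternative, DESeq2 1.42.0. The fits were tested on simulated data. Python 3.11.15, numpy 2.4.6, scipy 1.17.1, pandas 2.3.3 and matplotlib 3.10.9 were used. Promoter windows came from RefSeq, GRCm38.p6.

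The members, gene lists and classes were chosen with earlier results of these data known. Named with values were the 12 members with most UMIs, the 5 largest rises and falls per class and age among members with at least 100 UMIs, the 5 largest changes per direction in each edgeR comparison, the pathway lists and the genes whose level was most like the sum. A few genes that this rule would name, and a list of kinases and factors, are not reported here. The cDC2, Ifnb1 and 16-gene descriptions were added after the values were seen. Alternatives were stricter barcode filters, other class definitions and scalings, sums without the top 3 members or the deepest barcodes, fixed class weights, no gene filter, no block and each library left out.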

Additional observations from a re-analysis of the deposited data

Results flagged for a closer look

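The log2 ratio of DB over WT had opposite signs at 12 and 21 weeks, with intervals that left out 0 at both ages, in 11 cases. Members with at least 100 UMIs numbered 35 in macrophages, 28 in monocytes, 33 in cDC2 and 23 in T cells and ILC2. Sums of the list by class were looked at as well. The share of all genes that turned in this way is not given here. The count of 11 thus does not show whether such turns were more frequent among members. Each case is given as the ratio at 21 weeks minus that at 12 weeks. With 1 library per condition the differences were not tested, and the change of software cannot be told apart from age.

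In macrophages the neighbours Ifi204 and Ifi207 turned from lower to higher in DB mice, by 1.03 (from -0.70 at 12 weeks to 0.33 at 21 weeks) and 1.55 (from -0.55 at 12 weeks to 0.996 at 21 weeks). In cDC2 the turn in the same direction was 2.13 (from -0.44 at 12 weeks to 1.69 at 21 weeks) for Isg15, 2.998 (from -0.83 at 12 weeks to 2.17 at 21 weeks) for Ifit1, 0.88 (from -0.42 at 12 weeks to 0.45 at 21 weeks) for Ifih1, 2.28 (from -1.47 at 12 weeks to 0.80 at 21 weeks) for Oasl1, 2.24 (from -0.97 at 12 weeks to 1.27 at 21 weeks) for Ifi207 and 0.82 (from -0.31 at 12 weeks to 0.51 at 21 weeks) for Parp14. The 21-week-DB library had 310 cDC2, and 16 cells with an Ifnb1 UMI held 68.1% of their Ifit1 UMIs.

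The other direction was seen for Gbp2 in monocytes, at -3.12 (from 1.41 at 12 weeks to -1.71 at 21 weeks), and for Ifitm3 in T cells and ILC2, at -1.46 (from 0.66 at 12 weeks to -0.80 at 21 weeks). For the sum of the 36 genes the signs differed in γδ T cells, by 0.28 (from -0.15 at 12 weeks to 0.13 at 21 weeks). Without Ifitm3, Ifi27l2a and Ifi203 these were 0.09 and -0.08, with intervals that included 0.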

How the results depend on the processing

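Of 104 alternative values, 77 stayed within the counting interval or within 1.5 times the count, and 27 moved. None of the ratios among them reversed, and a count of members has no sign to reverse. The sign turns given above are not among the 104. They were for cDC2 and γδ T cells without the top 3 members, and for macrophages also without the cells with at least 6 genes. Over all leukocytes the log2 ratio at 12 weeks was -0.94 with at most 5% mitochondrial UMIs, -0.93 without the 5% of barcodes with most UMIs, -0.91 with TMM factors, -0.84 without the top 3 members and -0.76 at fixed class weights. At 21 weeks these were -0.94, -0.91, -0.96, -0.56 and -0.51, and the mean over barcodes gave -1.01. In macrophages at 12 weeks it was -1.03 with the mitochondrial limit, -1.11 with classes by marker score and, chosen after seeing the data, -0.97 without monocyte marker UMIs. At 21 weeks these were -0.40, -0.39 and -0.27, with -0.29 without the deepest barcodes, -0.43 with TMM factors and -0.11 without the top 3 members. The cause of these shifts was not tested.

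No paired analysis of genotypes or ages was possible because each condition has 1 library. In the class comparisons the block is the library shared by 2 classes, which pairs them. Without this replicate block 20 members were higher in monocytes and 19 in macrophages over T cells and ILC2, 3 were lower in macrophages than in T cells and ILC2 (main 5), and in Lyve1+ macrophages 0 were lower (main 7) and 0 higher (main 2). Leaving out 1 library in turn gave 19 to 28 members higher in monocytes, 19 to 24 higher and 3 to 6 lower in macrophages than in T cells and ILC2 (3 without 12-week-DB), and 6 to 7 lower and 1 to 3 higher in Lyve1+ macrophages (1 without 12-week-WT). The last count was 1 with DESeq2 and 1 with the mitochondrial limit.

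Each condition is 1 pool, so genotype, pool and library cannot be told apart. Low members rest on few UMIs in monocytes, neutrophils and cDC2 of 21-week-DB, which had 73, 38 and 310 cells, and its median depth was the lowest.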
